A study of Homo sapiens with 6 samples.

Results

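Described here are 9 genes of the NF-kB response in SH-SY5Y, an established line of human neuroblastoma, a tumour of the sympathetic lineage: IL32, CCL2, TNFRSF9, TRAF1, IER3, NFKBIA, NFKB2, RELB and BIRC3. They were taken by gene symbol from the deposited tables, where each of the 9 symbols matched 1 entry among 32575 genes. All 9 are protein coding, lie on 9 different chromosomes and were among the 28388 genes tested, those with a mean level of 1 or more in some group. The group was chosen with earlier results on these same libraries known. Their levels and differences are therefore given as a description, with no test.

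Messenger RNA was sequenced from 3 groups of 2 libraries. The control cells (labelled WT) carried a control hairpin, the CSA knockdown a hairpin against CSA (gene ERCC8) and the CSB knockdown a hairpin against CSB (gene ERCC6). All groups, controls included, received lentivirus, were selected with puromycin and stayed in culture for 2 to 3 weeks. The genotype labels call the depleted cells mutant but hairpins are named in the protocols, and the word knockdown is used for both. Whether replicate libraries stem from separate transductions is not said in the sources used here, so p-values measure only the spread between these libraries, which may be technical. CSA and CSB both act in transcription-coupled repair, and the comparisons ask which transcripts change when either is depleted in a neuronal line.

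NF-kB transcription factors are dimers of the Rel proteins RELA, RELB, REL, p50 (from NFKB1) and p52 (from NFKB2). In resting cells inhibitors of the IkB family hold them in the cytoplasm, until the kinases IKBKB and CHUK with their partner IKBKG mark the inhibitor for destruction. In the alternative branch MAP3K14 and CHUK drive the processing of NFKB2 into p52, which pairs with RELB. Active dimers bind kappaB sites and switch on cytokines, adhesion molecules, survival genes and their own inhibitors, so that many members of the pathway are also its targets. In cells of neural origin the pathway responds to cytokines of the TNF and interleukin families and to receptors that include the neurotrophin receptor NGFR.

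The promoter letters of the genes show where the kappaB consensus lies, which is the feature that marks a possible direct NF-kB target. RefSeq promoter windows (GRCh38.p14), each of 300 bases from 250 before to 50 after a start site, were at hand for 6 of the 9 genes, in 11 windows. CCL2, IER3 and RELB had no entry in that table. The kappaB consensus was searched on both strands, and overlapping matches were joined. It was found in 5 of the 6 genes, beside 13.3% of 27305 genes, and in 6 of the 11 windows, beside 11.3% of 35116 windows. The 9 genes were listed as NF-kB targets, so these shares describe the choice of genes and are not a result. A gene with more windows also has more places for a match, and the 6 genes had more windows each than genes at large. TRAF1 had no match in its windows. The stretches below are written on the strand of the gene, with the match in capitals. They are cut short where GENCODE v29 annotates a UTR at the same place.
IL32: ctgtactcaGGGAGTTTCCCcagccagct
TNFRSF9: agctgtggtGGGAATTTCCCatgagaccc
NFKBIA: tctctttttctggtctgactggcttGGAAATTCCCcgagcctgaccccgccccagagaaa
NFKB2, upstream start, distal: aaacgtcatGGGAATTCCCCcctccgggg
NFKB2, upstream start, proximal: ggccgagaaGGGGCTTTCCcggccctga
NFKB2, downstream start, distal: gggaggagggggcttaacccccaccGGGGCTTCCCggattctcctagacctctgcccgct
NFKB2, downstream start, proximal: ggtattttcGGGACTTTCCtaagctgct
BIRC3, distal: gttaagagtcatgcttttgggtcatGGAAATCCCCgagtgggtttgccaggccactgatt
BIRC3, proximal: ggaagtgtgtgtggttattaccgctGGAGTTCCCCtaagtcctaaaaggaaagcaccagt

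The IL32 stretch is chr16:3065295-3065323 on the plus strand, and its match begins 99 bases before the RefSeq start. The TNFRSF9 stretch is chr1:7940894-7940922 on the minus strand, with the match from base 74 before the start. NFKBIA has its stretch at chr14:35404796-35404855 on the minus strand, with the match from base 81. Not every NFKB2 window held a match, and its starts are called upstream and downstream only among the windows that did. NFKB2 has 4 stretches on the plus strand. Those at chr10:102394462-102394490 and chr10:102394491-102394518 have matches from bases 107 and 78 before the upstream start, and those at chr10:102395504-102395563 and chr10:102395675-102395702 from bases 176 and 21 before the downstream start. The BIRC3 stretches are chr11:102317260-102317319 and chr11:102317324-102317383 on the plus strand, with matches from bases 199 and 135. TNFRSF9 was also the 1 gene of the 6 with an AP-1 element (TGANTCA, either strand), beside 9.37% of genes. NFKBIA was the 1 gene with TATAAA on either strand, beside 3819 of 27305 genes. Each match is a description of letters and not a shown binding site.

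ERCC8 had scaled counts of 219 and 217 in control libraries, 61.8 and 57.2 in CSA libraries, and 186 and 215 in CSB libraries. ERCC6 had 615 and 593, then 618 and 611, then 258 and 302, so each targeted gene was lowest in the group named after it. A scaled count is the number of reads of a gene divided by one size factor per library, without correction for gene length. The libraries held 19368272 to 26758162 reads on genes. All 12 markers of noradrenergic neuroblastoma cells written down for the label check were present, with a summed scaled count of 145793 to 149912 in the controls, 157564 to 164414 in the CSA knockdown and 142798 to 144118 in the CSB knockdown. By limma with Benjamini-Hochberg adjustment over all genes, 3 of the 12 rose and 5 fell in the CSA knockdown, and 5 rose and 3 fell in the CSB knockdown. CHGA, which encodes a secretory granule protein, had means of 14900, 24387 and 3624 in the control, CSA and CSB groups. TH, the rate-limiting enzyme of catecholamine synthesis, was the weak one, at mean scaled counts of 17.1, 4.14 and 10.2 in the same order.

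The 9 genes fell into 4 patterns. IL32, CCL2, TNFRSF9 and IER3 were low in both knockdowns, TRAF1 was lowest in the CSA knockdown and intermediate in the CSB knockdown, and NFKB2, RELB and NFKBIA were lower in the CSA knockdown, with CSB values that overlapped the controls. BIRC3 was highest in the CSA knockdown. The summed scaled count of the 9 was 1906 and 1781 in control libraries, 1129 and 1198 in CSA libraries, and 1546 and 1482 in CSB libraries. In bulk RNA, fewer expressing cells and less RNA per cell cannot be told apart.

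**Figure D1:**
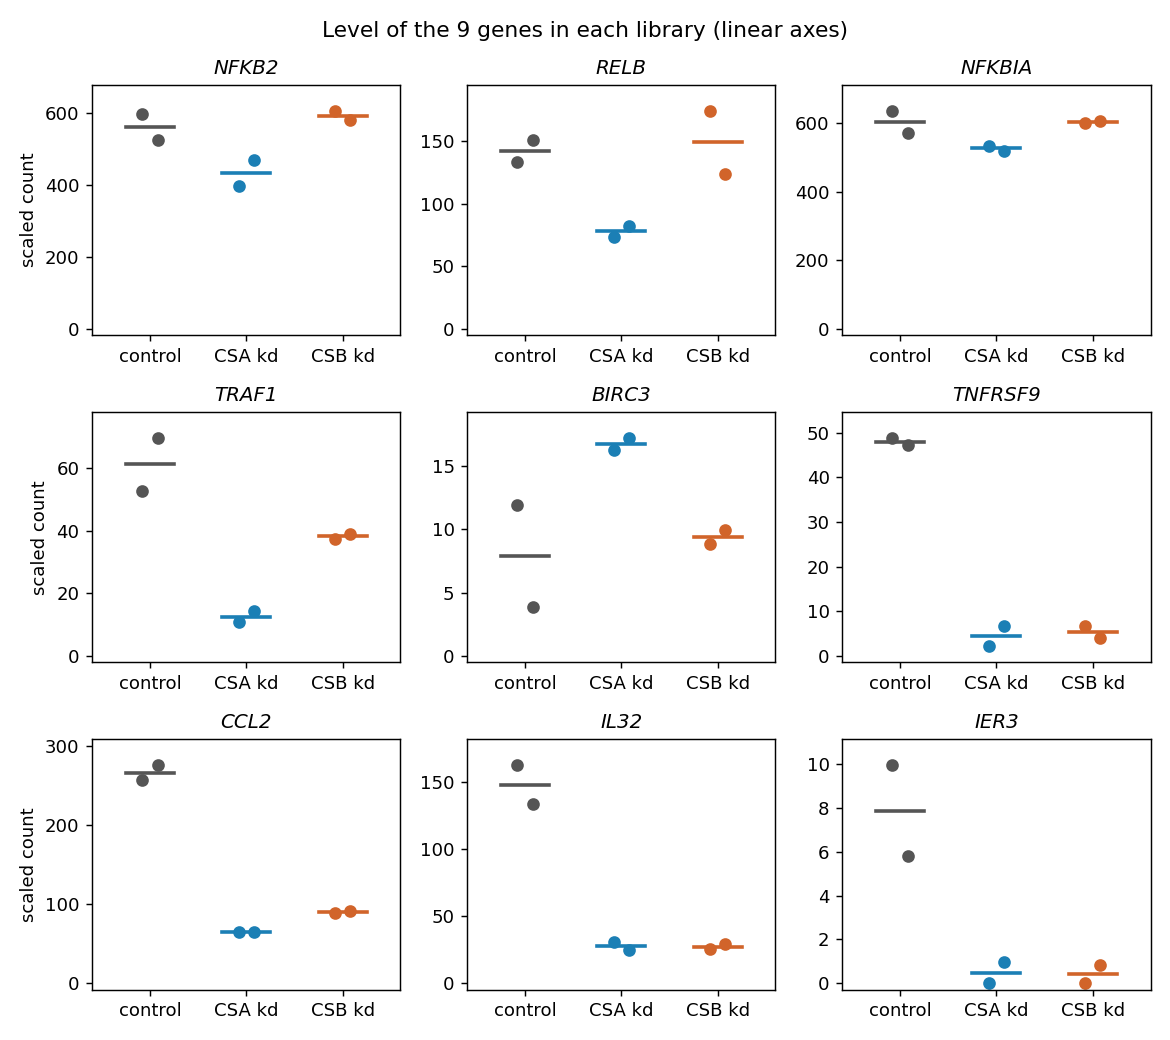
Scaled count of each of the 9 genes in the 6 libraries, 1 panel per gene on a linear axis; points are libraries, horizontal bars group means, and kd stands for knockdown. IL32, CCL2, TNFRSF9 and IER3 were low in all 4 knockdown libraries, and NFKB2 and RELB were low in the 2 CSA libraries, at 398 and 468 and at 73.7 and 82.0.

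Among the transcription factor subunits, NFKB2 encodes the precursor of p52 and lies at chr10:102394110-102402529 (hg38, plus strand). Its scaled counts were 596 and 525 in control libraries, 398 and 468 in CSA libraries, and 604 and 579 in CSB libraries. Both CSA libraries were below both controls, whereas the CSB and control ranges overlapped. The log2 fold change against control was -0.37 ± 0.09 (SE) in the CSA knockdown, a mean 22.7% lower, and 0.08 ± 0.09 in the CSB knockdown.

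RELB, the partner of p52 in the alternative branch, lies at chr19:45001430-45038198 on the plus strand. Scaled counts were 133 and 150 in control libraries, 73.7 and 82.0 in CSA libraries, and 174 and 124 in CSB libraries. The CSA values were a mean 45.1% below control (log2 change -0.86 ± 0.17). The CSB libraries stood on either side of the controls (0.05 ± 0.17), and without CSB replicate 1 the CSB difference was -0.19. NFKB2 and RELB were thus lower together in the CSA knockdown, and the difference of RELB was the larger.

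NFKBIA encodes IkB-alpha, the inhibitor that NF-kB itself induces, and lies at chr14:35401511-35404749 on the minus strand. It had scaled counts of 635 and 571 in control libraries, 533 and 519 in CSA libraries, and 601 and 606 in CSB libraries. The CSA libraries were lower than both controls by a small margin (log2 change -0.19 ± 0.07, a mean 12.7% lower). The CSB libraries lay between the controls, with a log2 fold change of 0.0033 ± 0.07 whose sign turned under other scalings (-0.07 with TMM).

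TRAF1 encodes an adaptor of TNF receptors that NF-kB induces, at chr9:120902393-120929173 on the minus strand. Its scaled counts were 52.7 and 69.4 in control libraries, 10.8 and 14.3 in CSA libraries, and 37.4 and 38.8 in CSB libraries. The 3 groups did not overlap. Against control the log2 fold change was -2.19 ± 0.27 in the CSA knockdown and -0.65 ± 0.27 in the CSB knockdown, or means 79.4% and 37.6% lower. TRAF1 had the widest gap between the knockdowns among the 9, with the CSB level 1.54 ± 0.27 above the CSA level on the log2 scale.

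BIRC3 encodes cIAP2, a ubiquitin ligase of the TNF receptor complex that is a classical NF-kB target, at chr11:102317450-102339403 on the plus strand. It was scarce, with scaled counts of 11.9 and 3.86 in control libraries, 16.3 and 17.2 in CSA libraries, and 8.81 and 9.90 in CSB libraries. It was the 1 gene of the 9 whose CSA libraries were both above the controls, on 33 reads against 16. The log2 fold change was 1.16 ± 0.49 in the CSA knockdown and 0.38 ± 0.49 in the CSB knockdown. The size rested on the controls: without control replicate 2 it was 0.45 in the CSA and -0.32 in the CSB knockdown, and without control replicate 1 it was 1.87 in the CSA knockdown.

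TNFRSF9 encodes the costimulatory receptor 4-1BB (CD137) and lies at chr1:7915894-7943165 on the minus strand. Scaled counts were 48.7 and 47.3 in control libraries, 2.17 and 6.68 in CSA libraries, and 6.61 and 4.13 in CSB libraries. Every knockdown library was far below the controls, and the knockdowns overlapped each other. In reads, 98 in the controls stood against 9 in the CSA and 11 in the CSB knockdown, a ratio of 0.0951 (exact 95% interval 0.0423 to 0.188) and 0.108 (0.0523 to 0.202). These intervals cover counting error only. The log2 fold changes were -3.31 ± 0.49 and -2.97 ± 0.49.

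The cytokine genes were also low in both knockdowns, at higher levels than TNFRSF9. CCL2 encodes the monocyte chemoattractant MCP-1, at chr17:34255218-34257203 on the plus strand. It had scaled counts of 257 and 275 in control libraries, 65.0 and 64.8 in CSA libraries, and 88.1 and 90.8 in CSB libraries. The means were 75.6% and 66.4% below control (log2 change -2.02 ± 0.13 and -1.56 ± 0.13). The groups did not overlap, and the CSB libraries were the higher of the knockdowns, by 0.46 ± 0.13 on the log2 scale.

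IL32 encodes a proinflammatory cytokine and lies at chr16:3065297-3082192 on the plus strand. Its scaled counts were 162 and 133 in control libraries, 30.3 and 24.8 in CSA libraries, and 25.3 and 28.9 in CSB libraries. The means were 81.3% and 81.6% below control, with log2 fold changes of -2.38 ± 0.22 and -2.40 ± 0.22. The knockdowns overlapped, and their difference was -0.02 ± 0.22. A lincRNA that overlaps IL32, RP11-473M20.9, had at most 1.08 in any library, and reads of the overlap cannot be separated because the strand setting of the counting is not given.

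IER3, an early response gene that is induced by stress and NF-kB and acts in cell survival, lies at chr6:30743199-30744554 on the minus strand. It stood near the detection limit, at scaled counts of 9.95 and 5.79 in control libraries, 0 and 0.954 in CSA libraries, and 0 and 0.825 in CSB libraries. There were 16 reads in the controls and 1 in each knockdown, a read ratio of 0.0647 (exact 95% interval 0.00154 to 0.417) in the CSA and 0.0602 (0.00144 to 0.387) in the CSB knockdown. On the log2(scaled count + 1) scale the differences were -2.62 ± 0.64 and -2.67 ± 0.64. An antisense gene over IER3, XXbac-BPG252P9.10, had 4.40 in CSB replicate 1, above IER3 itself in that library, and at most 1.08 in any other, and reads of the overlap cannot be assigned without the strand setting. The size of the IER3 difference depended on the pseudocount and ran from -3.96 to -1.22 in the CSA comparison over the pseudocounts, scalings and tools tried.

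**Figure D2:**
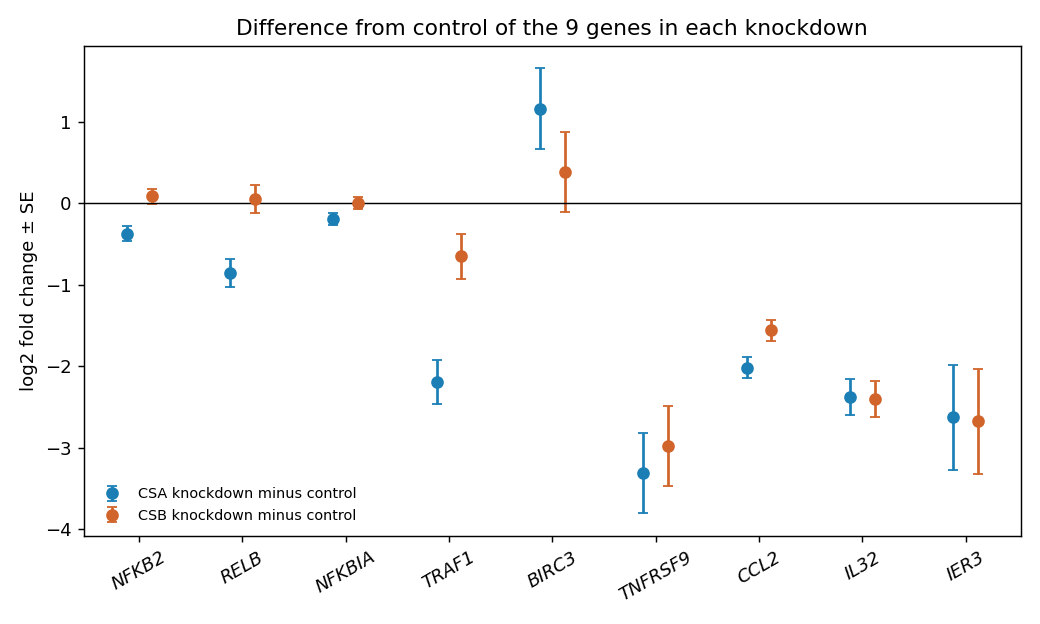
Log2 fold change against control (points, ± SE from the limma fit) of the 9 genes in the CSA and CSB knockdowns, on a linear log2 axis. TRAF1, RELB, CCL2, NFKB2 and NFKBIA are lower in the CSA than in the CSB knockdown, while IL32 stands at -2.38 and -2.40.

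Per kilobase of gene length the genes spanned a wide range of control levels. NFKBIA was highest, at a mean scaled count of 254 per kb, followed by CCL2 (134), NFKB2 (125), RELB (46.7), IL32 (46.0), TRAF1 (9.47), TNFRSF9 (7.58), IER3 (5.80) and BIRC3 (1.05). CCL2 and NFKB2 did not differ beyond the spread of their 2 libraries, and neither did RELB and IL32. The order in the CSA knockdown began with NFKBIA (222), NFKB2 (96.6) and CCL2 (32.7). TNFRSF9 (0.698) and IER3 (0.352) ended it.

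In counts, 8 of the 9 genes had both CSA libraries below both controls and 1 had both above, beside 27.1% and 26.4% of all genes tested. For the CSB knockdown, 5 were below and 4 overlapped, beside 22.2% of all genes below. The median log2 fold change of the 9 was -2.02 and -0.65, against 0.0048 and 0.10 over all genes. Between the knockdowns, 5 genes were higher in both CSB libraries, 1 lower and 3 overlapping, beside 36.5% and 23.7% of all genes. Because the genes were chosen with these comparisons in view, nothing is read from these counts.

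For the rest of the pathway, 7 partly overlapping lists held 183 different genes. Of these, 155 had an entry and 148 were tested with limma and Benjamini-Hochberg adjustment over all genes. A gene rose or fell where its adjusted p was below 0.05. Square brackets after a count give the lowest and highest count with any 1 of the 6 libraries left out. The comparisons with control share the same control libraries, so values for the knockdowns stand side by side without a test of overlap. Over all genes tested, 8.37% rose and 10.4% fell in the CSA knockdown, and 14.8% rose and 8.86% fell in the CSB knockdown. The CSB split depends on scaling: 62.5% of its called genes were higher as deposited and 47.7% to 51.3% under the other scalings.

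The calls of named pathway genes, 25 in the CSA and 29 in the CSB knockdown, also depended on how the spread was estimated. Without the mean-variance trend 3 of the 25 held (BIRC5, GADD45B and IL13RA1), RBCK1 (adjusted p = 0.0748) and XIAP (0.0582) among those that ended. In the CSB knockdown 11 of the 29 held (CD44, CXCL12, CXCR4, GADD45B, IER5L, MYD88, NGFR, TNFRSF12A, TNFRSF19, TNFSF12 and TRADD). With only the 2 groups compared, 6 of the 25 held (BIRC5, CXCL12, IL13RA1, RBCK1, TNFRSF21 and XIAP), and the CSB calls that ended were IL11, IL33, PSMB9 and TNFRSF10A. DESeq2 did not call BIRC2, IER5L, IL33, IL6R, TNFRSF1B and VCAM1 in the CSA knockdown, nor CXCL16, IKBKB, IL33, NFKBIB, PSMB9, RBCK1 and TNFRSF10A in the CSB knockdown. With no filter on low values the calls of IER5, IL6R and TNFRSF1B (CSA) and of CHUK, CXCL16 and IL33 (CSB) ended, as did those of IL6R, TNFRSF1B, CXCL16 and IL33 with a pseudocount of 0.25.

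**Figure D3:**
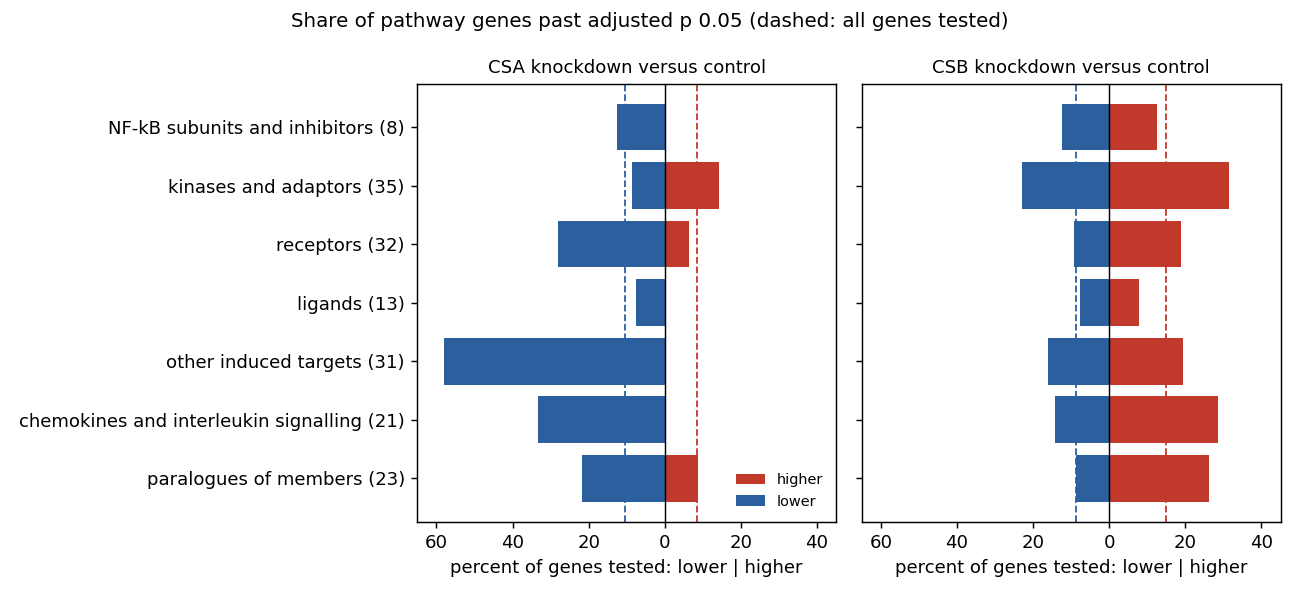
Percent of the tested genes of each list that fell (left bars) or rose (right bars) at an adjusted p below 0.05 in each knockdown, with the number tested in parentheses and the share over all genes as dashed lines. The longest bar is that of the other induced targets in the CSA knockdown, where 58.1% fell and 0 rose.

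Of 7 core genes of the machinery, 3 passed the test in the CSB knockdown, beside 23.6% of all genes, and the CSA differences of the 7 did not pass, beside 18.8% of all genes that did. RELA, the main activating subunit, had mean scaled counts of 2118 ± 51.0 (SD, n = 2) in the controls, 2156 ± 49.2 in the CSA knockdown and 2095 ± 62.3 in the CSB knockdown, and did not pass the test in either (log2 change 0.03 ± 0.05 and -0.02 ± 0.05). REL did not pass either (-0.22 ± 0.14 and -0.24 ± 0.14). NFKB1, the precursor of p50, fell in the CSB knockdown, from 626 and 629 to 461 and 487 (log2 change -0.40 ± 0.07, adjusted p = 0.0018). Its CSA libraries were at 600 and 536 (-0.14 ± 0.07, adjusted p = 0.226). Among the kinases, IKBKB rose in the CSB knockdown (0.32 ± 0.07, adjusted p = 0.0064) and CHUK fell (-0.18 ± 0.06, adjusted p = 0.0468). IKBKG (0.06 ± 0.11 in the CSA and 0.16 ± 0.11 in the CSB knockdown) and MAP3K14 (-0.09 ± 0.12 and 0.18 ± 0.12) did not pass. The NFKB1 and CHUK calls ended without any of the control or CSB libraries (adjusted p up to 0.109 and 0.198), and that of IKBKB without either control or CSB replicate 2 (up to 0.106).

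Of the 8 subunits and inhibitors outside the 9 genes, 0 rose [0 to 0] and 1 fell [0 to 0] in the CSA knockdown. The gene that fell was BCL3, an atypical IkB protein that works in the nucleus with p50 and p52. It went from 52.7 and 62.7 to 21.7 and 28.6 (log2 change -1.17 ± 0.31, adjusted p = 0.0180), and stood at 111 and 53.6 in the CSB knockdown. That call ended with the omission of any 1 of the 6 libraries (adjusted p up to 0.311). In the CSB knockdown NFKBIB, which encodes IkB-beta, rose (0.29 ± 0.07, adjusted p = 0.0063) and NFKB1 fell. The NFKBIB call ended without any control or CSB library (up to 0.115).

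The 35 kinases and adaptors of the signalling chain were tested in full. Of these, 5 rose [1 to 3] and 3 fell [1 to 2] in the CSA knockdown, with a median of -0.0064. RBCK1, a subunit of the linear ubiquitin ligase, rose from 2029 and 2044 to 2585 and 2789 (log2 change 0.40 ± 0.05, adjusted p = 2.1e-04). BTRC, which recognises marked IkB, rose as well (0.36 ± 0.07, adjusted p = 0.0027). XIAP, an inhibitor of caspases, fell from 1272 and 1238 to 945 and 941 (-0.41 ± 0.05, adjusted p = 1.9e-04), and so did the adaptor TRAF5 (-0.32 ± 0.07, adjusted p = 0.0048). The RBCK1 and XIAP calls held with each of the 6 libraries left out in turn and ended without the trend, as given above. The calls for BTRC ended without either control, CSA replicate 1 or either CSB library (up to 0.116), and that for TRAF5 without any control or CSB library (up to 0.128).

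More of these genes moved in the CSB knockdown, where 11 rose [2 to 9] and 8 fell [0 to 7], with a median of 0.05. More genes were called at large too, 23.6% of all genes in the CSB and 18.8% in the CSA knockdown. The CSB rises and falls among the kinases and adaptors were 8 and 8 under TMM scaling. Without the mean-variance trend they were 2 and 0. The adaptor of Toll-like and interleukin-1 receptors, MYD88, rose from 320 and 313 to 500 and 463 (log2 change 0.60 ± 0.08, adjusted p = 1.6e-04). TRADD, the adaptor of TNF receptor 1, rose from 349 and 363 to 501 and 559 (0.57 ± 0.08, adjusted p = 2.3e-04). Both calls held in all 6 omissions. The deubiquitinase OTULIN (-0.26 ± 0.07, adjusted p = 0.0213) and the kinase MAP3K7, known as TAK1 (-0.25 ± 0.05, adjusted p = 0.0049), fell. Those 2 calls ended without any control or CSB library (adjusted p up to 0.301 and 0.113).

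Receptors of the TNF, interleukin-1, interleukin-17 and Toll-like families numbered 37, of which 33 had an entry and 32 were tested. There were 2 rises [0 to 1] and 9 falls [0 to 4] in the CSA knockdown, with a median of -0.25. The falls numbered 4 without either CSA library and 0 or 1 without any other. TNFRSF1B, the second TNF receptor, had 26.9 and 14.5 in control and 1.08 and 10.5 in CSA libraries (log2 change -2.08 ± 0.65, adjusted p = 0.0419). TLR4, the receptor for bacterial lipopolysaccharide, fell from 90.5 and 83.9 to 30.3 and 16.2 (-1.92 ± 0.26, adjusted p = 2.1e-04), and was at 87.0 and 91.6 in the CSB knockdown. The rises were TNFRSF21, known as death receptor 6 (0.74 ± 0.09, adjusted p = 8.4e-05), and TNFRSF19 (0.67 ± 0.17, adjusted p = 0.0136). The TNFRSF21 call ended without control replicate 2 (0.0524), the TLR4 call without any control or CSB library (up to 0.0738), the TNFRSF1B call without any library but CSA replicate 2 (up to 0.425) and the TNFRSF19 call without any 1 of the 6 (up to 0.162).

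In the CSB knockdown 6 receptors rose [4 to 5] and 3 fell [1 to 4], with a median of 0.33. NGFR, the neurotrophin receptor p75, was at 116 and 102 in control libraries, 47.7 and 62.0 in CSA libraries, and 1358 and 1515 in CSB libraries. The rise in the CSB knockdown (log2 change 3.70 ± 0.13, adjusted p = 1.1e-08) held in all 6 omissions, and the fall in the CSA knockdown (-0.99 ± 0.13, adjusted p = 2.0e-04) ended without control replicate 1 or either CSB library (up to 0.0691). TNFRSF10A, a receptor for the death ligand TRAIL, went from 14.9 and 6.75 to 35.2 and 29.7 (1.59 ± 0.45, adjusted p = 0.0236), a call that ended with any 1 library left out (up to 0.275). TNFRSF12A, the receptor for TWEAK, fell (-0.71 ± 0.07, adjusted p = 2.5e-05) and its call held in all 6 omissions. TNFRSF19 fell (-0.97 ± 0.17, adjusted p = 0.0010), a call that ended without control replicate 1 or either CSB library (up to 0.0923).

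Few ligands were measured: of 23, 16 had an entry and 13 were tested. TNF and IL6 had no entry in any of the tables. Of these, 0 rose [0 to 0] and 1 fell [0 to 0] in the CSA knockdown. The gene was IL33, an alarmin of the interleukin-1 family, which had 25.9 and 33.8 in control libraries, 1.08 and 3.81 in CSA libraries, and 2.20 and 12.4 in CSB libraries. It fell in both comparisons (log2 change -3.27 ± 0.66, adjusted p = 0.0041, and -2.22 ± 0.66, adjusted p = 0.0296), and both calls ended with any 1 library left out (up to 0.200 and 0.364). TNFSF12, which encodes TWEAK, rose in the CSB knockdown from 100 and 123 to 199 and 199 (0.84 ± 0.13, adjusted p = 5.8e-04). That call ended without either CSB library (up to 0.0865).

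Of 42 other NF-kB-inducible genes, 32 had an entry and 31 were tested. In the CSA knockdown 18 fell [2 to 9] and 0 rose [0 to 0], 58.1% beside 10.4% of all genes, with a median log2 fold change of -0.53. The list was chosen with earlier results of these libraries known and is not independent evidence of a direction. The number that fell was 2 with the mean-variance trend left out of the fit and 2 with only the control and CSA libraries fitted, and 15 to 20 under the other scalings, filters, pseudocounts and count models and with the replicate block. Leaving out 1 library gave 4 and 2 (control replicates 1 and 2), 7 and 9 (CSA replicates 1 and 2), and 3 and 3 (CSB replicates 1 and 2).

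The 18 that fell were VCAM1, GADD45B, SDC4, LIF, PLAU, TNFAIP2, PTX3, CD44, CSF1, CD83, CEBPB, IRF1, MYC, CFLAR, EFNA1, B4GALT1, JUNB and TNFAIP8. They hold adhesion and matrix molecules, secreted factors, transcription factors and survival genes. VCAM1, an adhesion molecule for leukocytes, had 24.9 and 12.5 in control libraries, 0 and 3.81 in CSA libraries, and 4.40 and 7.43 in CSB libraries (CSA log2 fold change -3.09 ± 0.71, adjusted p = 0.0086). GADD45B, a stress gene that NF-kB uses to restrain apoptosis, fell from 29.8 and 31.8 to 10.8 and 8.58 (-1.58 ± 0.27, adjusted p = 0.0014). MYC fell by 0.53 on the log2 scale and was the 1 gene of the 18 whose call held in all 6 omissions. The VCAM1 call ended without any library but CSA replicate 2 (up to 0.239), with DESeq2, without the trend and with only the 2 groups compared. That of GADD45B ended without either control (up to 0.0643) and with only the 2 groups compared.

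In the CSB knockdown the same list gave 6 rises [1 to 5] and 5 falls [1 to 3], with a median of 0.03. LIF, a cytokine of the interleukin-6 family, was at 37.8 and 25.1 in control libraries, 15.2 and 12.4 in CSA libraries, and 74.9 and 83.3 in CSB libraries (CSB log2 fold change 1.33 ± 0.28, adjusted p = 0.0038). CD44, the hyaluronan receptor, was at 175 and 205, then 125 and 109, then 479 and 475 (1.33 ± 0.11, adjusted p = 4.6e-06). SDC4, a syndecan, fell (-0.81 ± 0.13, adjusted p = 8.0e-04), and so did the immunoproteasome subunit PSMB9, from 13.9 and 8.68 to 0 and 2.48 (-2.69 ± 0.62, adjusted p = 0.0069). The CD44 rise held in all 6 omissions. The calls ended for LIF without control replicate 2 or either CSB library (up to 0.144), for SDC4 without any control or CSB library (up to 0.153) and for PSMB9 without any library but CSB replicate 2 (up to 0.168).

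Tested directly against each other, the knockdowns differed at 19 of the 31 inducible genes, of which 16 were higher in the CSB knockdown [8 to 14] and 3 lower [1 to 2], beside 18.1% and 11.3% of all genes. The median difference was 0.51, against 0.09 over all genes. GADD45B (2.80 ± 0.27, adjusted p = 6.7e-06), LIF (2.44 ± 0.28, adjusted p = 2.5e-05) and CD44 (2.03 ± 0.11, adjusted p = 5.2e-08) were among them, and these calls held in all 6 omissions. The share of called genes that were higher in this comparison over all genes was 61.5% as deposited and 49.7% to 52.6% under other scalings, under which 15 of the inducible genes were higher and 3 lower.

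**Figure D4:**
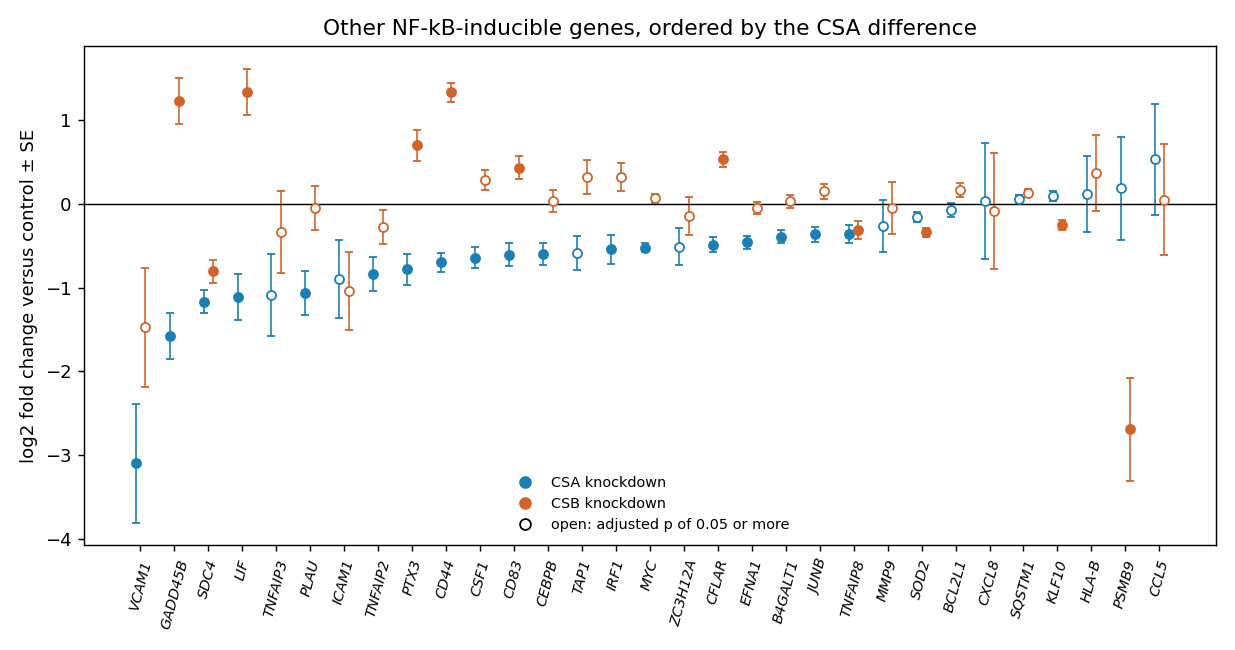
Log2 fold change against control (± SE, linear log2 axis) of the 31 tested NF-kB-inducible genes outside the 9, ordered by the CSA difference; filled points passed an adjusted p of 0.05. In the CSA knockdown 18 filled points lie below 0 and none above, while the CSB points of GADD45B, LIF and CD44 lie above 0.

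RefSeq promoter windows were at hand for 36 of the 42 inducible genes, and 18 of them held the kappaB consensus, beside 13.3% of all genes. Their choice as known targets makes this a check of the list rather than a result.

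Chemokines and other interleukin signalling genes numbered 29, of which 23 had an entry and 21 were tested. In the CSA knockdown 0 rose [0 to 0] and 7 fell [1 to 6], with a median of -0.30, and in the CSB knockdown 6 rose [2 to 6] and 3 fell [1 to 3], with a median of 0.18. The CSA falls numbered 6 without CSA replicate 1, 1 without either control and 2 without any other library. CXCL12 and its receptor CXCR4, which guide migrating cells, fell in both. CXCL12 was at 337 and 359 in control libraries, 249 and 257 in CSA libraries, and 193 and 209 in CSB libraries (log2 change -0.46 ± 0.09, adjusted p = 0.0036, and -0.79 ± 0.09, adjusted p = 5.4e-05). CXCR4 fell by 0.43 ± 0.07 (adjusted p = 0.0012) and 0.83 ± 0.07 (adjusted p = 6.5e-06). The CXCL12 fall in the CSB knockdown held in all 6 omissions. The others ended, that of CXCL12 in the CSA knockdown without any control or CSA library (up to 0.0937), and those of CXCR4 without any library but CSA replicate 1 (up to 0.126) and without CSB replicate 2 (0.0507).

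IL13RA1, a receptor chain for interleukin 13, fell in the CSA knockdown from 691 and 683 to 469 and 456 (log2 change -0.57 ± 0.06, adjusted p = 5.5e-05), a call that held in all 6 omissions. IL6R had 10.9 and 15.4 against 4.34 and 1.91 (-1.83 ± 0.58, adjusted p = 0.0464), and its call ended with any 1 library left out (up to 0.301). Rises in the CSB knockdown included the chemokine CXCL16, from 34.8 and 35.7 to 69.4 and 65.2 (0.91 ± 0.30, adjusted p = 0.0452), and the cytokine IL11, from 108 and 83.0 to 176 and 153 (0.79 ± 0.17, adjusted p = 0.00455). The CXCL16 call ended without any control or CSB library (up to 0.356) and under TMM, upper quartile and library total scaling, with a pseudocount of 0.25, with no filter, with DESeq2 and without the trend. The IL11 call ended without any library but control replicate 1 (up to 0.195).

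A list of 30 genes held relatives of the 9 by family or by name, and 23 had an entry and were tested. The list overlaps those above. TRAF5, XIAP and BIRC2 are also kinases and adaptors, and NFKB1 and NFKBIB also subunits and inhibitors, so these calls are counted again here. IER2, IER5 and IER5L share only the early response name with IER3, and a common origin was not checked. In the CSA knockdown 2 rose [0 to 1] and 5 fell [2 to 4], 21.7% beside the 10.4% of all genes, with a median of -0.03, and in the CSB knockdown 6 rose [1 to 7] and 2 fell [0 to 2], with a median of 0.04. The CSB rises were 26.1% of the 23, beside 14.8% of all genes. BIRC2, which encodes cIAP1 and lies 7808 bases from BIRC3, had 1020 and 979 in control libraries, 1216 and 1119 in CSA libraries, and 870 and 857 in CSB libraries. It rose in the first comparison (log2 change 0.22 ± 0.06, adjusted p = 0.0251) and fell in the second (-0.21 ± 0.06, adjusted p = 0.0279). BIRC5 (survivin), a relative with a role in mitosis, fell in the CSA knockdown from 3452 and 3445 to 1640 and 1514 (-1.13 ± 0.06, adjusted p = 1.0e-07) and its call held in all 6 omissions. Of the genes that share a name with IER3, IER5L rose in the CSB knockdown (1.04 ± 0.09, adjusted p = 8.6e-06, held in all 6), as did IER5 (0.58 ± 0.08, adjusted p = 2.3e-04). IER2 rose in the CSA knockdown (0.33 ± 0.07, adjusted p = 0.0031), where IER5 (-0.28 ± 0.08) and IER5L (-0.39 ± 0.09) fell. In the CSA knockdown the BIRC2 call ended without any library but CSA replicate 2. In the CSB knockdown it ended without any control or CSB library. The IER5 rise in the CSB knockdown ended without control replicate 2 or either CSB library, and the IER2 rise without any library but CSA replicate 1. The IER5 fall in the CSA knockdown ended with any 1 library left out, and that of IER5L without any control or CSB library. Both falls also ended without the trend and with only the 2 groups compared.

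Genes within 100 kb of the 9 numbered 84, of which 78 were tested. In the CSA knockdown 8 rose and 9 fell (10.3% and 11.5%), and in the CSB knockdown 14 rose and 10 fell (17.9% and 12.8%), beside the shares over all genes given above. Next to NFKB2, 88 bases away, PSD rose in the CSA knockdown (log2 change 0.51), where NFKB2 was lower. Near RELB, APOE fell in the CSA knockdown (-1.23), and near BIRC3, YAP1 (-1.09) and TMEM123 (-0.40) fell. Around NFKBIA the lncRNA RP11-561B11.6 had mean scaled counts of 27.4 in the controls, 104 in the CSA knockdown and 1.24 in the CSB knockdown. The other neighbours that passed in either comparison were TNFRSF12A, MMP25, ZNF213, HCFC1R1, ZNF205, PKMYT1, THOC6, MMP25-AS1 and ZNF213-AS1 (near IL32), ASIC2 (CCL2), PER3 and ERRFI1 (TNFRSF9), and PSMD5, C5 and PSMD5-AS1 (TRAF1). To these come ATAT1, NRM, PPP1R18, TUBB, DHX16 and C6orf136 (IER3), DNAJC8P1 (NFKBIA), C10orf95 (NFKB2), CLPTM1, CLASRP and PPP1R37 (RELB) and BIRC2 (BIRC3). Of 17 neighbour calls in the CSA knockdown, 5 held in all 6 omissions (APOE, PKMYT1, PSD, TMEM123 and YAP1), and of 24 in the CSB knockdown, 6 held (CLPTM1, ERRFI1, TMEM123, TNFRSF12A, TUBB and ZNF205). Antisense partners in this set cannot be told apart from the sense gene without strand.

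A search ran over 13875 other genes whose mean reached 50 scaled counts in some group. The gene whose level was most like each of the 9 over the 6 libraries was found by Pearson's r. It was TMEM100 for IL32 (0.996), HMGB3 for CCL2 (0.998), SRP68 for TNFRSF9 (0.998), DENR for TRAF1 (0.999), METTL16 for IER3 (0.994), UBQLN2 for NFKBIA (0.989), AC113189.5 for NFKB2 (0.993), RFXAP for RELB (0.991) and TTC7B for BIRC3 (0.977). The 6 points share 3 groups and the best of many genes was picked, so these are descriptions. Likeness of shape is not likeness of size: HMGB3 stood at mean scaled counts of 2842, 1500 and 1739 in the control, CSA and CSB groups, a far smaller relative drop than that of CCL2.

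Markers of other cell types stood beside these values. Of 12 macrophage and microglia markers, 6 had an entry, and their summed scaled count was 28.0 to 32.8 in the controls, 21.9 to 26.0 in the CSA knockdown and 27.2 to 31.9 in the CSB knockdown. CD14 took most of it, with means of 20.1, 17.9 and 17.1 in the control, CSA and CSB groups, and CSF1R had 4.91, 2.58 and 8.81. PTPRC, the pan-leukocyte antigen, was at a mean of 2.92 in the controls, on 6 reads, and 0 in both knockdowns. ITGAM was at 0 in the control and CSB groups. Lymphocyte markers (7 of 12 with an entry) summed to 139 to 147, 133 to 160 and 155 to 156 in the same order, of which CD8A took most. Endothelial markers (10 of 12) summed to 641 to 693, 565 to 648 and 680 to 704, with EGFL7 the bulk. Of the 8 endothelial markers tested, CLDN5 (means of 28.9, 10.7 and 24.8), ESAM (44.96, 23.1 and 68.4) and KDR (2.94, 0 and 5.23) fell in the CSA knockdown. These markers were also higher in the CSB than in the CSA knockdown. Of all genes tested, 10.4% fell in the CSA knockdown and 18.1% were higher in the CSB than in the CSA knockdown. KDR rested on 6 reads in the controls. Fibroblast and mesenchymal markers (11 of 12) summed to 20112 to 21303 in the controls, 15562 to 15724 in the CSA knockdown and 30250 to 30366 in the CSB knockdown. In the CSA knockdown 4 of these 11 fell (COL1A1, COL3A1, LUM and PDGFRB) and 0 rose, beside 10.4% and 8.37% of all genes. In the CSB knockdown 6 rose (COL1A1, COL1A2, DCN, PDGFRA, PDGFRB and TWIST1) and THY1 fell, beside 14.8% and 8.86% of all genes. COL3A1, with means of 7588, 4010 and 7981, and TWIST1, with 6545, 6011 and 13085, made up most of the sums. Schwann cell precursor markers (8 of 12) summed to 213 to 216, 175 to 176 and 233 to 260. How the marker calls fare in the other settings and omissions is not given here. The part of the marker shifts in the levels of the 9 genes and of the inducible genes was not tested.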

How the data were processed

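The 6 libraries were prepared from 1 µg of total RNA and read in paired-end mode, per the labels' protocols and series text. The submitters' processing notes list FastQC, HISAT2 2.0.4 and the build hg38. For counting, the tool, strand setting and annotation were not given in the sources used here. Values as deposited are a signal: although headed FPKM per the file headers, 100% of them were whole multiples of the smallest value in their library (tolerance 0.01 of it), so they hold reads per gene over a library-wide size factor. Reads were recovered by that division, and a gene missing from a library was taken as 0. Depth ran over 1.38-fold, and replicates differed beyond sampling noise (chi-square per gene 1.95 to 5.06).

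The main test was limma 3.58.1 (R 4.3.3) on log2(scaled count + 1) with its trend option for the mean-variance relation, with the 3 groups in one fit of 6 libraries and 3 residual degrees of freedom. Genes with a mean of at least 1 in at least 1 group entered, and p-values were adjusted over all of them by Benjamini-Hochberg, with a threshold of 0.05. The code of the fit was run on simulated counts with known fold changes, drawn with a common spread for all genes. That run checks the code and cannot show how calls fare under the spread of these libraries. Alternatives were pseudocounts of 0.25 and 5, no filter or a mean of at least 10, TMM, upper quartile and library total scaling, edgeR 4.0.16 and DESeq2 1.42.0 on recovered reads, no trend, only the 2 groups compared, a replicate block and the omission of each library.

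The 9 genes, the 7 pathway lists and the 6 marker lists were chosen with earlier results of these data known. Named were the 9, ERCC8 and ERCC6, 7 core pathway genes, the 2 largest called rises and falls per list and comparison with control, called genes within 100 kb, and the most similar gene for each of the 9. All 18 inducible genes that fell in the CSA knockdown were also named, as were the called endothelial, fibroblast and mesenchymal markers. Other called genes of the lists were counted and not all named. Naming went by the size of the change and not by how well a call held.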

Additional observations from a re-analysis of the deposited data

Results flagged for a closer look

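At 31 of the named genes outside the 9, the difference from control was called in at least 1 knockdown and the knockdowns also differed from each other (limma, adjusted p from 2.2e-10 to 0.0354). Of these, 20 had opposite signs in the 2 knockdowns. Both differences were called at 10 of the 20, and at PSMB9 and TLR4 1 of them lay within 1 SE of 0. Of the 31, 19 were higher and 12 lower in the CSB than in the CSA knockdown, and 16 calls held with each of the 6 libraries left out in turn while 15 did not. The 31 were picked by these same differences, a rule that favours opposite signs, so nothing is read from the counts. Over all genes called between the knockdowns, 61.5% were higher in the CSB knockdown as deposited and 49.7% to 52.6% under other scalings. Values are the CSB minus CSA difference on the log2 scale.

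The calls of TNFRSF1B, TNFRSF10A, TLR4, TNFSF12, PSMB9, CXCL16, IL11 and BCL3 ended in at least 1 omission. So did those of CXCR4, CXCL12, BTRC, MAP3K7, RBCK1, NFKB1 and IER2. The low scaled counts of TNFRSF1B and PSMB9 are given above. Of the receptors and ligands, NGFR was higher in the CSB knockdown by 4.70, TNFRSF1B by 2.85, TNFRSF10A by 2.30, TLR4 by 1.96 and TNFSF12 by 0.78. TNFRSF19 (-1.64), TNFRSF21 (-1.26) and TNFRSF12A (-0.53) were lower. Of the inducible genes, GADD45B (2.80), LIF (2.44) and CD44 (2.03) were higher and PSMB9 (-2.87) was lower. Among chemokine and interleukin genes, CXCL16 (1.69), IL11 (1.07) and IL13RA1 (0.75) were higher, and CXCR4 (-0.40) and CXCL12 (-0.33) were lower. For the signalling chain the higher genes were MYD88 (0.77), TRAF5 (0.65), XIAP (0.57) and TRADD (0.50), and the lower ones BTRC (-0.31), MAP3K7 (-0.20) and RBCK1 (-0.16). BCL3 (1.60) was higher and NFKB1 (-0.26) lower. On the list of relatives by family or name, IER5L (1.43), BIRC5 (0.98) and IER5 (0.86) were higher, and BIRC2 (-0.43) and IER2 (-0.26) were lower.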

How the results depend on the processing

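The call counts rest on a pooled spread. Without the mean-variance trend, 1507 genes and 6 pathway genes were called in the CSA comparison (5334 and 50 as reported), 1778 and 15 in the CSB comparison (6706 and 55), and 4786 and 41 between the knockdowns (8340 and 72). With only the 2 groups compared, the CSA counts were 2460 and 9. With 1 library left out, where a lone sample is assumed to vary like the other groups, they ran from 1512 to 2882 and from 8 to 25 for CSA, from 1907 to 5451 and from 15 to 48 for CSB, and from 4003 to 6268 and from 31 to 57 between the knockdowns. Of the pathway calls, 5 of 50, 13 of 55 and 29 of 72 held in all 6 omissions. Other settings kept each count within 1.5 times.

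Replicate numbers were shared, but the replicate differences of the groups did not correlate (-0.040, -0.032 and -0.032 over 13397 genes), so no pairing was assumed. With the replicate block, 5259 genes and 49 pathway genes were called for CSA, 6575 and 55 for CSB, and 8258 and 72 between the knockdowns. The CHUK call in the CSB knockdown ended with the block.

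Of the 9 genes, those near 0 in the CSB comparison turned sign: NFKBIA (-0.073 with TMM, -0.071 with upper quartile scaling, -0.069 with edgeR and -0.086 with DESeq2, and -0.073 to 0.079 over the omissions), and, over the omissions, NFKB2 (-0.0100 to 0.17), RELB (-0.19 to 0.29) and BIRC3 (-0.32 to 1.09). Under those scalings and count models RELB was also below 0, by less than the spread of its libraries. With no library omitted, the lowest NFKB2 value over the other settings was -0.0090. Between the knockdowns TNFRSF9 ran from -0.30 to 0.98 over the omissions, IL32 from -0.16 to 0.12 and IER3 from -0.53 to 0.43. Depth limits IER3, TNFRSF9 and BIRC3, with 1 to 33 reads per knockdown group, and TRAF1 in the CSA knockdown, with 25 reads.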
